A study of Mus musculus with 69 samples.

Results

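The pituitary of young wild-type (WT) female mice was compared here with the hypothalamus of the same strain, sex and age. The comparison rests on 7 of the 69 RNA sequencing libraries of the series, chosen by their labels for tissue, genotype and age and by no measured value. There were 3 pituitary libraries and 4 hypothalamus libraries. All 7 came from female C57BL/6J mice with genotype Zeb1_WT, 8 to 12 weeks old, virgin and staged for proestrus, no mouse carried a knock-in allele, and the labels give no treatment. The series was built to ask what happens when miR-200a/b no longer represses Zeb1, and these animals are its normal controls. Libraries are named by tissue and replicate number, and the pituitary library whose count column could not be tied to a numbered label is called pituitary u. Nothing in the labels says that a pituitary and a hypothalamus with the same number came from 1 mouse. Each sample was homogenised whole, the labels name neither pituitary lobes nor hypothalamic nuclei, and the size of the dissected block is not given. A second set of WT females, 28 to 36 weeks old and taken after a breeding trial, gave 4 pituitary and 4 hypothalamus libraries, which are described at the end.

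The hypothalamus and the pituitary form the centre of the neuroendocrine system. Neurons of the hypothalamus release small peptides and dopamine into a portal circulation, and endocrine cells of the anterior lobe answer through receptors on their surface by secreting prolactin, growth hormone, corticotropin, thyrotropin and the gonadotropins. Other hypothalamic neurons send axons to the posterior lobe, where vasopressin and oxytocin are released and where the resident glia are called pituicytes. The anterior lobe derives from oral ectoderm and keeps epithelial traits, whereas the hypothalamus is neural tissue with neurons, astrocytes, oligodendrocytes and a blood-brain barrier.

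The 7 libraries matched their tissue labels. Total counts were 9458146 to 10427482 in pituitary and 3803035 to 4673023 in hypothalamus, so 1 count was worth 0.0966 to 0.105 counts per 1000000 (CPM) in pituitary and 0.212 to 0.263 CPM in hypothalamus. All CPM values below were scaled by the trimmed mean of M values (TMM) and are given as mean ± SD over 3 pituitary or 4 hypothalamus libraries. Prl alone took 12.5 to 14.5% of all counts in pituitary, and the 7 hormone genes together took 15.4 to 17.1%. In hypothalamus the same 7 genes took at most 0.00381%. Mitochondrial transcripts took 5.11 to 5.31% of counts in pituitary and 10.3 to 11.8% in hypothalamus, and depth and mitochondrial share therefore go with tissue. The part of this in the results was not tested. In these whole-tissue samples, fewer cells of a type and less RNA per cell cannot be told apart.

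More than 2 in every 3 genes differed between the tissues. Among 16462 genes tested with edgeR's quasi-likelihood test, 6057 (36.8%) were higher in pituitary and 5834 (35.4%) were higher in hypothalamus at an adjusted p under 0.05, which is 72.2% in all. Because such a share says little about any gene, each gene was also tested against a difference of 2-fold. By that test 1941 genes (11.8%) were more than 2-fold higher in pituitary and 2996 (18.2%) were more than 2-fold higher in hypothalamus, together 30.0%. Counts of genes called in 1 tissue are to be read against these last 2 shares. A gene near 0 counts in 1 tissue enters the tests only through the tissue where it is high. List counts with such members partly follow from that filter. The median log2 difference (pituitary minus hypothalamus) over all genes tested was 0.05. Differences of 8-fold or more among the genes so called were more common in hypothalamus, with 1207 genes against 510. In 1207 of the former and 509 of the latter no library of 1 tissue overlapped a library of the other. These genes were taken for their large difference, so the lack of overlap mostly follows from that choice. Of the 178 genes given with values below, the libraries of the tissues overlapped in 12, namely Crhr1, Gnrh1, Agrp, Nppc, Slc17a8, Unc13a, Pcsk1, Pcsk2, Srp9, Abcg2, Cdh1 and Ttr, and in the other 166 every library of 1 tissue lay above every library of the other. Many of the 178 were chosen by the size of their difference, and some by lack of overlap itself, so this count is no result about them. The same share over all genes tested was not counted.

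The 2 sets of genes differed in their gene structure. The median gene more than 2-fold higher in hypothalamus spanned 28.4 kb of genome, against 15.9 kb for genes more than 2-fold higher in pituitary and 21.0 kb for all genes tested. Spans over 200 kb were found for 12.9% of the hypothalamic set, 3.66% of the pituitary set and 5.89% of all genes tested. The median summed exon length was 3588 nt in the hypothalamic set and 2992 nt in the pituitary set. Protein-coding genes made up 77.9% and 79.9% of the sets and 81.8% of all genes tested.

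**Figure D1:**
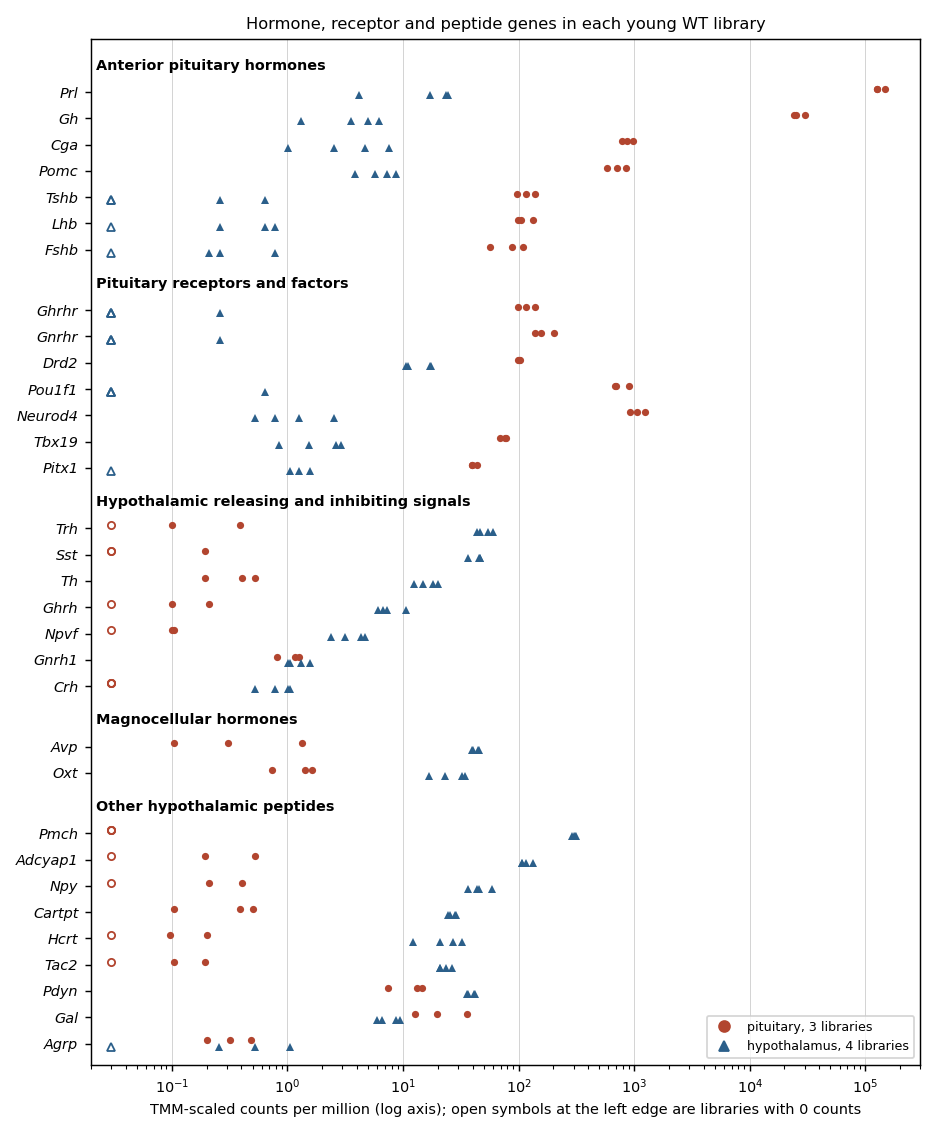
TMM-scaled CPM on a log axis in each of the 3 pituitary libraries (circles) and 4 hypothalamus libraries (triangles) for pituitary hormones, receptors and factors and for hypothalamic hormones and peptides. Open symbols at the left edge are libraries with 0 counts. For the 7 pituitary hormones every pituitary library lies to the right of every hypothalamus library, the order is turned round for Trh, Sst, Avp, Oxt and Pmch, and the libraries overlap for Gnrh1 and Agrp.

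The hormone genes of the anterior pituitary differed by 114-fold to 7570-fold. All 7 of 7 were more than 2-fold higher in pituitary, as were 11.8% of all genes tested, with a median log2 difference of 8.02. Prl (ENSMUSG00000021342, chr13:27057570-27065205, plus strand, GRCm38), which encodes prolactin of the lactotropes, was at 126300, 127300 and 149300 CPM in pituitary 1, 2 and u. It was at 17.3, 4.20, 24.4 and 23.8 CPM in hypothalamus 1, 2, 3 and 4. The tissues did not overlap, and the log2 difference was 12.89 (SE 0.21, adjusted p = 5.46e-24). Gh (chr11:106300271-106301865, minus strand), the growth hormone gene of the somatotropes, was at 30370, 24230 and 25090 CPM in the pituitary libraries and at 4.98, 1.31, 3.56 and 6.15 CPM in the hypothalamus libraries, again without overlap (log2 difference 12.65, SE 0.14, adjusted p = 1.12e-26). Per unit of exon length, Prl was the more abundant, at 311200 ± 18690 transcripts per 1000000 (TPM) against 64130 ± 8508 TPM for Gh.

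The glycoprotein hormone subunits were all higher in pituitary. Cga (chr4:34893779-34907370, plus strand), the alpha subunit that luteinising hormone, follicle-stimulating hormone and thyrotropin share, was at 979, 862 and 786 CPM in pituitary and at 7.61, 4.73, 1.02 and 2.54 CPM in hypothalamus (log2 difference 7.81, SE 0.17, adjusted p = 9.27e-22). Lhb, the beta subunit of luteinising hormone, was at 134, 106 and 99.3 CPM in pituitary. In hypothalamus it had 1, 3, 0 and 3 counts, or 0.422 ± 0.358 CPM (log2 difference 7.97, SE 0.24, adjusted p = 3.09e-19). The pituitary libraries of Lhb varied by less than those of Fshb, the beta subunit of follicle-stimulating hormone, which ran from 56.9 to 110.4 CPM. Fshb had 1, 3, 0 and 1 counts in the hypothalamus libraries (log2 difference 8.02, SE 0.35, adjusted p = 4.14e-16). Tshb, the beta subunit of thyrotropin, was at 97.7, 116 and 139 CPM in pituitary and had 1, 0, 0 and 3 counts in hypothalamus (log2 difference 8.79, SE 0.27, adjusted p = 4.59e-19). Measured per length, pituitary Cga stood at 2253 ± 302 TPM, Tshb at 375 ± 55.8, Lhb at 347 ± 61.6 and Fshb at 111 ± 39.1 TPM, so the shared subunit outnumbered each beta subunit.

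Pomc, the precursor of corticotropin and melanocortins, was the hormone gene with the smallest difference. It was at 844, 717 and 588 CPM in pituitary and at 7.34, 5.78, 8.65 and 3.82 CPM in hypothalamus (log2 difference 6.83, SE 0.14, adjusted p = 5.3e-22). Pomc neurons are also a known cell type of the arcuate nucleus.

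Short motifs known from pituitary and hypothalamic promoters were looked for in RefSeq promoter windows (250 bases before to 50 after the annotated start, GRCm38.p6). The first, TATNCAT on either strand, is a core sequence of the kind that the pituitary factor POU1F1 binds. Among the 6 hormone genes with a window it was found in 1, the window of Prl, and it is held by 8.84% of 32851 windows of the genome and 4.2% of the windows of genes tested here. The hormone gene with no window was Gh. No window of the 6 receptor genes that had one held it. The Prl window is shown because Prl had the largest share of counts of any gene. Its 250 bases before the start (chr13:27057320-27057569, plus strand) hold 2 matches, in capitals, which begin 148 and 47 bases before the start.
Prl: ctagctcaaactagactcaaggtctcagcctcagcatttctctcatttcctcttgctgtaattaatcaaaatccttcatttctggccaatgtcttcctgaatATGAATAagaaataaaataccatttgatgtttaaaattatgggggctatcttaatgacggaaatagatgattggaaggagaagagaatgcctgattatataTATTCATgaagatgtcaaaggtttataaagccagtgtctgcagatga

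A match describes these letters only and says nothing of binding.

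Traces of pituitary hormone RNA in the hypothalamus differed between genes. Prl in hypothalamus was 0.013% of its mean pituitary level and Gh 0.0151%, while Cga was 0.454%, Lhb 0.374%, Fshb 0.372% and Pomc 0.893%. Prl and Gh were both lowest in hypothalamus 2, with 16 and 5 counts in hypothalamus 2 and 66 to 112 and 14 to 29 counts in the other 3. Cga had another order, with 29, 18, 4 and 12 counts in hypothalamus 1 to 4. Pou1f1, which marks the lineage of both lactotropes and somatotropes, had 0, 0, 0 and 3 counts. The origin of these counts was not tested.

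Among 16 tested transcription factors of pituitary cell lineages, 12 were more than 2-fold higher in pituitary, 3 were more than 2-fold higher in hypothalamus and the median log2 difference was 4.35. Pou1f1 (chr16:65520511-65535005, plus strand), required for lactotropes, somatotropes and thyrotropes, was at 691, 911 and 680.1 CPM in pituitary. Its 3 counts in hypothalamus all lay in library 4, and the ratio of scaled counts was 4110 (95% exact interval 1410 to 19900). Neurod4, a basic helix-loop-helix factor, was at 921, 1061 and 1244 CPM in pituitary and 0.525, 0.788, 1.27 and 2.54 CPM in hypothalamus (log2 difference 9.62, SE 0.16, adjusted p = 9.33e-24). Tbx19, which drives corticotrope and melanotrope identity, was at 74.3 ± 4.55 CPM against 1.97 ± 0.953 CPM (log2 difference 5.27, SE 0.18, adjusted p = 5.95e-18). Pax7, a selector of melanotropes in the intermediate lobe, was at 29.6 ± 4.47 against 0.369 ± 0.330 CPM (log2 difference 6.26, SE 0.32, adjusted p = 9.3e-15).

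Factors of the early pituitary placode were also higher in pituitary. Pitx1 was at 40.8 ± 2.18 CPM against 0.974 ± 0.684 CPM, a 40.7-fold difference. Lhx3 was at 32.8 ± 5.65 CPM and had 2 counts in hypothalamus, both in library 3, with a count ratio of 266 (95% exact interval 73.3 to 2200). Six6 and Eya1, which are known in the hypothalamus as well, were 13.2-fold and 9.29-fold higher in pituitary with hypothalamic levels of 14.0 and 20.1 CPM. Among gonadotrope and thyrotrope factors, Foxl2 was 31.5-fold higher in pituitary (21.9 against 0.644 CPM) and Gata2 5.88-fold (10.9 against 1.81 CPM).

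Other factors went the other way and 1 was close to the 2-fold limit. Nr5a1 (SF-1) marks gonadotropes and also neurons of the ventromedial hypothalamus. It was at 9.08, 7.17 and 9.52 CPM in pituitary and 3.41, 5.25, 4.33 and 3.60 CPM in hypothalamus, which passed the test of any difference (log2 difference 1.05, SE 0.24, adjusted p = 0.000422) but not the test against 2-fold. Isl1, Sox2 and Sox9 were 2.46-fold, 2.96-fold and 3.16-fold higher in hypothalamus, each more than 2-fold by the test. The call of Isl1 was lost without hypothalamus 2 or pituitary 1 (−1.22 and −1.21 on the log2 scale) and with DESeq2 (−1.32). Sox2 and Sox9 mark pituitary stem cells and also neural progenitors and astrocytes.

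The receptors through which the pituitary reads hypothalamic signals did not share a direction. Of 8 tested, 3 were more than 2-fold higher in pituitary and 2 were more than 2-fold higher in hypothalamus, and the median log2 difference was −0.30. Gnrhr (chr5:86180754-86197901, minus strand), the receptor for gonadotropin-releasing hormone, was at 158, 202 and 139 CPM in pituitary and had a single count in hypothalamus, with a count ratio of 2690 (95% exact interval 483 to 106000). Ghrhr, the receptor for growth hormone-releasing hormone, was at 138, 116 and 99.9 CPM in pituitary and likewise had 1 count in hypothalamus, with a ratio of 1920 (95% exact interval 345 to 75900). Drd2, the dopamine receptor that holds back prolactin secretion, was at 103, 101 and 98.3 CPM in pituitary and 17.6, 17.1, 10.7 and 11.0 CPM in hypothalamus (log2 difference 2.85, SE 0.13, adjusted p = 6.76e-16).

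The other receptors were lower in pituitary or not shown to differ. Trhr, the receptor for thyrotropin-releasing hormone, was at 9.18, 12.4 and 13.1 CPM in pituitary and 24.9, 23.4, 20.6 and 23.5 CPM in hypothalamus, which is 2.00-fold higher in hypothalamus (SE 0.16 on the log2 scale, adjusted p = 4.06e-06) but not shown to exceed 2-fold. Crhr1, for corticotropin-releasing hormone, overlapped between the tissues (5.70 ± 1.03 against 4.37 ± 1.68 CPM, adjusted p = 0.216). Ghsr, the ghrelin receptor, was 2.34-fold higher in hypothalamus (5.49 against 12.9 CPM), also not shown to exceed 2-fold. The somatostatin receptor Sstr2 was more than 2-fold higher in hypothalamus, at 1.79 ± 0.399 CPM in pituitary against 8.37 ± 1.65 CPM (log2 difference −2.21, SE 0.29, adjusted p = 3.01e-07). Npffr2, a receptor for RFamide peptides, had 3 counts over the 3 pituitary libraries and 4.28 ± 0.480 CPM in hypothalamus, with a hypothalamus-to-pituitary count ratio of 42.0 (95% exact interval 13.8 to 209).

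The releasing and inhibiting hormones that could be tested were higher in hypothalamus. Of 8 genes, 5 had enough counts to be tested. By the test 5 of 5 were more than 2-fold higher in hypothalamus, as were 18.2% of all genes tested, with a median log2 difference of −6.01. These 5 were near 0 counts in pituitary and entered the fit through the hypothalamus libraries. The count of 5 of 5 therefore largely follows from the filter. Trh was at 43.5, 59.6, 55.0 and 46.5 CPM in hypothalamus and had 4, 0 and 1 counts in pituitary 1, 2 and u (log2 difference −8.09, SE 0.29, adjusted p = 1.24e-17). Sst (chr16:23889573-23890958, minus strand), somatostatin, was at 36.7, 45.5, 46.8 and 46.9 CPM in hypothalamus and had 2 counts in pituitary, both in library 1, with a count ratio of 656 (95% exact interval 181 to 5430). Its lowest hypothalamic value was that of library 1. Th, the tyrosine hydroxylase of dopamine neurons, was at 18.4, 12.3, 15.0 and 20.1 CPM in hypothalamus and 0.375 ± 0.169 CPM in pituitary (log2 difference −5.41, SE 0.34, adjusted p = 5.39e-13).

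Ghrh and Npvf were lower in level and also higher in hypothalamus. Ghrh, the growth hormone-releasing hormone, was at 7.34, 6.04, 10.7 and 6.79 CPM in hypothalamus against 3 counts in all pituitary libraries, a count ratio of 76.1 (95% exact interval 25.5 to 374). Npvf, which encodes RFamide-related peptides, was at 3.63 ± 1.06 CPM against 2 counts, a ratio of 54.8 (95% exact interval 14.5 to 463). Gnrh1 and Crh were too low to be tested. Gnrh1 was at 1.57, 1.31, 1.02 and 1.06 CPM in hypothalamus and 1.26, 1.16 and 0.810 CPM in pituitary, where the tissues overlapped, so that at this depth no difference was detectable. Crh had 2, 3, 4 and 5 counts in hypothalamus and 0 counts in pituitary, where 3 counts over the group set the bound at 8.53-fold or more. Without the low-count filter Crh was tested and was called more than 2-fold higher in hypothalamus.

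The second motif searched was the palindrome TGACGTCA, the cyclic AMP response element. It was found in 2 of 7 windows of the releasing and inhibiting hormones, those of Sst and Th, in 1 of 19 windows of the other hypothalamic peptides, that of Cartpt, and in 0 of 6 windows of the pituitary hormones. It is held by 1.79% of all 32851 windows and by 2.96% of the windows of genes tested here. The Sst sequence is shown because Sst was the releasing or inhibiting hormone with the largest difference. The 250 bases before its start (chr16:23890845-23891094, minus strand) hold 1 match, in capitals, which begins 48 bases before the start.
Sst: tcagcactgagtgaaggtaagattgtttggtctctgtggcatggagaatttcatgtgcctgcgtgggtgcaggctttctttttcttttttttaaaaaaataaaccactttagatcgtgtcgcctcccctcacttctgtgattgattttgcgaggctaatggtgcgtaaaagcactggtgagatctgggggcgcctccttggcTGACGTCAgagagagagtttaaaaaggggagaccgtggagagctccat

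Vasopressin and oxytocin, the hormones of magnocellular neurons, were 68.4-fold and 20.7-fold higher in hypothalamus, where the cell bodies lie. Avp was at 45.1, 39.7, 40.7 and 44.8 CPM in hypothalamus and at 1.35, 0.105 and 0.304 CPM in pituitary (log2 difference −6.10, SE 0.28, adjusted p = 1.11e-15). Oxt was at 23.1, 34.7, 16.8 and 32.2 CPM in hypothalamus and at 1.64, 0.738 and 1.42 CPM in pituitary (log2 difference −4.37, SE 0.28, adjusted p = 1.31e-12). As a share of the hypothalamic mean, pituitary Oxt was 4.74% and pituitary Avp 1.38%. Pituitary 1 had the highest value of both hormones, with 14 of the 18 pituitary counts of Avp and 17 of the 38 of Oxt. By library, the share of Avp was 3.18%, 0.248% and 0.713% in pituitary 1, 2 and u, and that of Oxt 6.15%, 2.76% and 5.31%.

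Among 16 tested neuropeptides of the hypothalamus, 13 were more than 2-fold higher in hypothalamus and 1 was more than 2-fold higher in pituitary, with a median log2 difference of −5.14. Pmch (chr10:88091072-88092375, plus strand), the melanin-concentrating hormone of the lateral hypothalamus, was at 288, 300.0, 315 and 308 CPM in hypothalamus. Not 1 of its 4926 counts fell in a pituitary library, so it was at least 3000-fold higher in hypothalamus, taking 3 counts over the pituitary group as the floor. Hcrt, which encodes the orexins of the same region, varied more, at 12.3, 20.8, 27.2 and 32.5 CPM in hypothalamus against 3 counts in pituitary.

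Peptides of the arcuate nucleus and of other nuclei followed. Npy was at 46.0 ± 9.52 CPM in hypothalamus against 0.205 ± 0.203 CPM in pituitary (log2 difference −7.70, SE 0.31, adjusted p = 1.3e-16). Cartpt was 75.7-fold higher in hypothalamus (0.333 against 26.9 CPM), and Tac2, which encodes neurokinin B, was at 23.0 ± 2.77 CPM against 3 counts in pituitary. Adcyap1, the gene of the peptide PACAP, was at 132, 107, 117 and 108 CPM in hypothalamus and 0.240 ± 0.267 CPM in pituitary (log2 difference −8.83, SE 0.23, adjusted p = 2.41e-20). Agrp, the orexigenic peptide of the arcuate nucleus, was close to 0 in both young tissues, with 0, 2, 1 and 5 counts in hypothalamus and 5, 3 and 2 in pituitary, and was not tested. In the older libraries it averaged 5.145 CPM in hypothalamus and 1.097 CPM in pituitary.

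Galanin was the exception among the peptides. Gal was at 19.8, 12.7 and 35.6 CPM in pituitary and 8.66, 9.46, 6.62 and 5.94 CPM in hypothalamus, without overlap and highest in pituitary u (log2 difference 1.58, SE 0.27, adjusted p = 1.4e-05). Its call of more than 2-fold was lost when pituitary u, hypothalamus 3 or hypothalamus 4 was left out (1.10 on the log2 scale without pituitary u) and with DESeq2 (1.55), and the count of neuropeptides more than 2-fold higher in pituitary then fell from 1 to 0. Galanin is known in lactotropes as well as in hypothalamic neurons. Pdyn, the dynorphin precursor, was higher in hypothalamus by a smaller margin, at 11.8 against 38.9 CPM (log2 difference −1.72, SE 0.17, adjusted p = 2.06e-09). Nppc, the C-type natriuretic peptide, overlapped (2.73 against 2.52 CPM, adjusted p = 0.778), and Prok2 was higher in hypothalamus but not shown to exceed 2-fold (1.15 against 3.33 CPM, adjusted p = 0.000618).

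Of 24 transcription factors that pattern the hypothalamus, 18 were tested, 14 were more than 2-fold higher in hypothalamus, 0 were more than 2-fold higher in pituitary and the median log2 difference was −5.34. Otp, needed for the neuroendocrine neurons of the paraventricular nucleus, was at 79.0, 92.2, 79.9 and 77.4 CPM in hypothalamus and 0.236 ± 0.0594 CPM in pituitary (log2 difference −8.33, SE 0.20, adjusted p = 5.76e-21). Sim1, which acts in the same neurons, was at 65.0 ± 4.56 CPM against 0.673 ± 0.383 CPM (log2 difference −6.55, SE 0.20, adjusted p = 4.56e-19). Foxb1, a marker of the mammillary region, was at 19.1, 14.4, 19.1 and 23.3 CPM in hypothalamus and had 0 counts in pituitary, at least 191-fold lower.

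Dlx1 and Dlx2, which specify GABA neurons, were at 22.2 ± 3.64 and 16.2 ± 2.35 CPM in hypothalamus against 0.479 ± 0.334 CPM and 1 count in pituitary. Lhx1, of the suprachiasmatic nucleus, was at 15.4 ± 0.782 CPM against 3 counts. Nkx2-1 was at 39.8 ± 4.71 CPM in hypothalamus and kept 4.30 ± 0.595 CPM in pituitary or 10.8% of the hypothalamic mean. It is also known in pituicytes. Six3 alone was higher in pituitary (183 against 84.5 CPM, log2 difference 1.12, SE 0.09, adjusted p = 3.79e-11), short of the test against 2-fold, which it passed without hypothalamus 2 or pituitary 2 (1.18 and 1.15). Rorb and Lhx6 were higher in hypothalamus and not shown to exceed 2-fold (156 against 261 CPM and 1.17 against 3.69 CPM), though Lhx6 passed without pituitary u (−2.58).

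**Figure D2:**
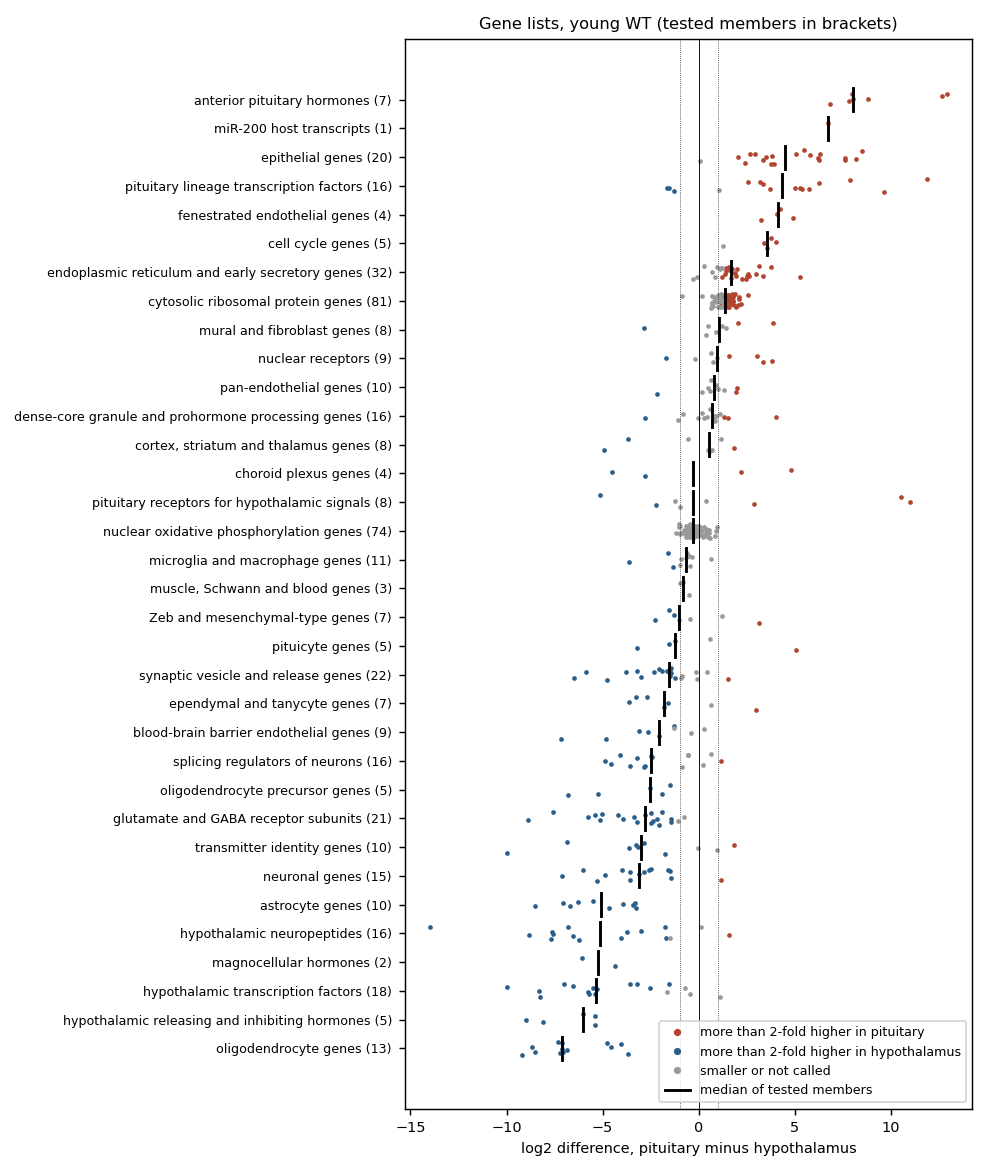
Log2 difference (pituitary minus hypothalamus) of every tested member of the gene lists, 1 dot a gene, with the number of tested members in brackets and the median as a black bar. Red dots are more than 2-fold higher in pituitary, blue dots more than 2-fold higher in hypothalamus and grey dots neither. Hormones (median 8.02) lie at the pituitary end and oligodendrocyte genes (−7.09) at the hypothalamus end, while oxidative phosphorylation genes (−0.31) lie close to 0.

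Neuronal genes were higher in hypothalamus in 14 of 15 cases by more than 2-fold, with a median log2 difference of −3.09. The summed level of the list was 11140 to 11770 CPM in hypothalamus and 2355 to 2419 CPM in pituitary. Much of it came from Snhg11 in hypothalamus and from Meg3 in pituitary, both given below. In the older libraries the sums lay closer, at 13660 to 17200 and 10150 to 10540 CPM. There 14 of 15 genes were again more than 2-fold higher in hypothalamus (median −3.48). Stmn2, a regulator of axonal microtubules, was at 213, 218, 214 and 217 CPM in hypothalamus and 1.64, 1.79 and 1.11 CPM in pituitary (log2 difference −7.14, SE 0.12, adjusted p = 1.53e-23). Nefl, the light neurofilament chain, differed 65.4-fold (2.66 against 175 CPM), Elavl3 29.1-fold (5.75 against 167 CPM) and Tubb3 15.9-fold (6.78 against 108 CPM). Snhg11, a host transcript of small nucleolar RNA, had the highest mean CPM of the list, at 4524 ± 214 CPM against 117 ± 11.1 CPM. Meg3, a long noncoding RNA, was the exception and was more than 2-fold higher in pituitary (752, 748 and 772 against 326, 343, 352 and 336 CPM, log2 difference 1.16, SE 0.05, adjusted p = 2.45e-15).

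The genes that define neurotransmitters divided sharply. Of 10 tested, 7 were more than 2-fold higher in hypothalamus, 1 was more than 2-fold higher in pituitary and the median was −3.01. Gad1, a glutamate decarboxylase that makes GABA, was at 228, 232, 204 and 213 CPM in hypothalamus and had 4, 0 and 2 counts in pituitary (log2 difference −9.95, SE 0.19, adjusted p = 8.3e-23). The second decarboxylase, Gad2, was present in pituitary at 61.8, 62.6 and 65.8 CPM, against 451, 483, 438 and 452 CPM in hypothalamus (log2 difference −2.85, SE 0.07, adjusted p = 4.64e-21). Slc32a1, the vesicular GABA transporter, followed Gad1 with 0.363 ± 0.240 against 45.0 ± 2.22 CPM. The pituitary libraries thus held Gad2 with Gad1 and Slc32a1 near 0.

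Among the vesicular glutamate transporters, Slc17a6 was also plainly present in pituitary, at 84.3, 93.1 and 103 CPM against 294, 299.8, 364 and 329 CPM in hypothalamus (log2 difference −1.78, SE 0.08, adjusted p = 1.52e-15). Slc17a7 was low and higher in pituitary (5.02, 3.69 and 4.66 against 2.62, 1.31, 0.255 and 0.848 CPM, log2 difference 1.84, SE 0.41, adjusted p = 0.000366). Its call of more than 2-fold was lost without pituitary 1, hypothalamus 3 or hypothalamus 4 (1.75, 1.49 and 1.66 on the log2 scale) and with DESeq2 (1.83), and with 1 library left out the count of transmitter genes more than 2-fold higher in pituitary ran from 0 to 2. Slc17a8 overlapped between tissues (4.17 against 4.18 CPM, adjusted p = 0.954).

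The machinery of vesicle release was shared in part. Of 22 genes, 16 were more than 2-fold higher in hypothalamus and 1 in pituitary, with a median log2 difference of −1.55. Cplx1 (0.942 against 87.5 CPM), a complexin that clamps fusion, and Rims1 (0.642 against 39.0 CPM), a scaffold of the active zone, were among those higher in hypothalamus. Sv2c and Vamp1 differed 13.9-fold and 9.22-fold. Syt7, a calcium sensor for slow release, was more than 2-fold higher in pituitary (338, 305 and 323 against 110.4, 104, 117 and 111 CPM, log2 difference 1.54, SE 0.07, adjusted p = 4.5e-16). Syt4 was higher in pituitary by a factor of 1.36 (497 against 365 CPM, adjusted p = 6.41e-06).

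Several components of exocytosis stood at nearly equal levels. The second complexin, Cplx2, was at 279, 311 and 334 CPM in pituitary and 348, 339, 335 and 349 CPM in hypothalamus, a difference of −0.15 on the log2 scale that passed the threshold (adjusted p = 0.0337) but not without pituitary 1 (−0.08, adjusted p = 0.29) or hypothalamus 4 (−0.16, adjusted p = 0.0526). The priming factor Unc13a overlapped (141 against 149 CPM, adjusted p = 0.345). The log2 differences of Cplx1 and Cplx2 were −6.51 and −0.15.

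Receptor subunits for glutamate and GABA were higher in hypothalamus throughout. Of 21 tested, 19 were more than 2-fold higher there, 0 were more than 2-fold higher in pituitary and the median was −2.79. Grin2b, an NMDA receptor subunit, was at 942 ± 41.0 CPM in hypothalamus against 4.90 ± 1.83 CPM in pituitary (log2 difference −7.59, SE 0.12, adjusted p = 7.05e-24). The GABA-A subunits Gabra5 and Gabrg1 were 54.2-fold and 42.1-fold higher. Grik2, a kainate receptor subunit, was not shown to exceed 2-fold and kept 129.9 CPM in pituitary (276 CPM in hypothalamus). Without pituitary 2 it passed (−1.22), which made 20 of 21.

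Genes for dense-core granules and prohormone cleavage were expressed in both tissues. Of 16, 3 were more than 2-fold higher in pituitary and 1 was more than 2-fold higher in hypothalamus, and the median log2 difference was 0.67. These counts are 18.8% and 6.25%, against 11.8% and 18.2% of all genes tested. Chgb, the granule protein chromogranin B, was at 792, 800.4 and 819 CPM in pituitary and 44.3, 47.5, 49.9 and 58.1 CPM in hypothalamus (log2 difference 4.00, SE 0.07, adjusted p = 6.58e-23). Chga, its relative, differed less, at 77.0 against 30.6 CPM (log2 difference 1.33, SE 0.12, adjusted p = 6.7e-10), and Scg5, the chaperone of the convertase PC2, at 227 against 80.2 CPM (2.83-fold, SE 0.07 on the log2 scale, adjusted p = 5.54e-15). The call of Chga was lost without hypothalamus 3 (1.20) and with DESeq2 (1.31). Vgf was the 1 gene of the list more than 2-fold higher in hypothalamus (11.1 against 77.1 CPM, log2 difference −2.78, SE 0.13, adjusted p = 1.06e-15).

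The convertases themselves did not separate the tissues. Pcsk1 was at 129, 137 and 118 CPM in pituitary and 112, 123, 113 and 109 CPM in hypothalamus, with overlap (log2 difference 0.16, SE 0.07, adjusted p = 0.0562). Without pituitary u the same difference was 0.22 with an adjusted p of 0.0179. Pcsk2 overlapped too (289 against 298 CPM, adjusted p = 0.597). Cpe, the carboxypeptidase that trims their products, was higher in hypothalamus (232 against 493 CPM, log2 difference −1.09, SE 0.07, adjusted p = 2.55e-13) without passing the test against 2-fold. Without hypothalamus 2 or pituitary 1 it did pass (−1.15 and −1.13), which made 2 genes of the list.

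Genes of the endoplasmic reticulum and early secretory route were mostly higher in pituitary. Of 32, 23 were more than 2-fold higher in pituitary, 0 in hypothalamus, and the median was 1.68. Their summed level was 7667 to 9463 CPM in pituitary and 2904 to 3088 CPM in hypothalamus. Creb3l1, a membrane-bound transcription factor of secretory cells, was at 588, 336 and 563 CPM in pituitary, lowest in library 2, and 9.18, 13.1, 13.2 and 15.1 CPM in hypothalamus (log2 difference 5.28, SE 0.17, adjusted p = 8.87e-19). Creb3l2 was at 459 ± 32.9 against 33.9 ± 6.33 CPM (log2 difference 3.76, SE 0.09, adjusted p = 1.1e-20). Sdf2l1 and Derl3, of protein quality control, and Sec61b, of the translocation channel, were 10.1-fold, 8.70-fold and 8.02-fold higher. Canx, a lectin chaperone, was higher in pituitary by a factor of 1.22 (661 against 544 CPM), Sel1l was higher in hypothalamus (163 against 204 CPM, adjusted p = 0.000557) and Srp9 overlapped (12.7 against 13.7 CPM, adjusted p = 0.584).

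Genes of the cytosolic ribosome were higher in pituitary as a group. Of 81 tested, 54 were more than 2-fold higher in pituitary and 0 in hypothalamus, with a median of 1.38, and their summed level was 5464 to 6088 CPM against 2182 to 2285 CPM. These genes have many near-identical pseudogene copies, so single members are uncertain. Nuclear genes of oxidative phosphorylation differed by less. Of 74 tested, 0 were more than 2-fold apart in either direction, 32 were higher in hypothalamus and 7 in pituitary by a smaller margin, and the median was −0.31.

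Glial genes marked the hypothalamus without exception among astrocytes and oligodendrocytes. All 10 of 10 astrocyte genes (median −5.07) and 13 of 13 oligodendrocyte genes (median −7.09) were more than 2-fold higher in hypothalamus, as were 5 of 5 genes of oligodendrocyte precursors (median −2.52). Slc1a2, the main glutamate transporter of astrocytes, was at 3406, 3248, 3554 and 3257 CPM in hypothalamus and 81.0, 61.6 and 81.4 CPM in pituitary (log2 difference −5.49, SE 0.09, adjusted p = 5.16e-24). Gfap was at 126 ± 17.2 CPM against a mean of 1.57 CPM, and Ntsr2 and Agt differed 373-fold and 133-fold. Aqp4, the water channel of astrocyte endfeet, kept 22.3 ± 1.70 CPM in pituitary against 338 ± 41.9 CPM, which is the smallest difference of those named here (log2 difference −3.92, SE 0.10, adjusted p = 1.47e-20).

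Myelin genes gave the lowest list median of all. Mobp, a basic protein of myelin, was at 237, 206, 252 and 206 CPM in hypothalamus and 0.676, 0 and 0.405 CPM in pituitary (log2 difference −9.18, SE 0.20, adjusted p = 1.15e-21). Ermn was at 81.8 ± 4.65 against 0.201 ± 0.0994 CPM, and Mog at 48.5 ± 6.50 CPM against 3 counts over the pituitary group. The summed oligodendrocyte level was 3141 to 3657 CPM in hypothalamus and 85.2 to 95.0 CPM in pituitary.

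Pituicyte genes did not move as a group. Of 5 tested, 3 were more than 2-fold higher in hypothalamus, 1 was more than 2-fold higher in pituitary, and the median was −1.22. Without pituitary 1, the count of 3 fell to 1, since the calls of Col25a1 and Lhx2 were lost. That of Lhx2 was also lost without pituitary 2, pituitary u or hypothalamus 1 (log2 difference −1.45 to −1.54 with 1 library left out) and with DESeq2 (−1.56). Cyp2f2 was at 58.8, 59.8 and 57.0 CPM in pituitary and 2.62, 1.05, 1.02 and 2.12 CPM in hypothalamus (log2 difference 5.07, SE 0.19, adjusted p = 1.61e-17). Scn7a was higher in pituitary (88.2 against 58.7 CPM, log2 difference 0.58), whereas Col25a1 (92.3 against 215 CPM) and Lhx2 (2.39 against 6.94 CPM) were higher in hypothalamus, where neurons and tanycytes also express them. How much of each pituitary sample was posterior lobe was not measured.

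Genes of ependyma and tanycytes were mostly hypothalamic. Of 7 tested, 5 were more than 2-fold higher in hypothalamus, 1 in pituitary, and the median was −1.82. Foxj1, the master regulator of motile cilia, was at 2.68 against 17.1 CPM (log2 difference −2.67, SE 0.23, adjusted p = 2.33e-10). Dio2, the deiodinase that makes active thyroid hormone in tanycytes and in thyrotropes, was the 1 higher in pituitary, at 162, 190.0 and 186 CPM against 25.2, 27.9, 17.6 and 21.6 CPM (log2 difference 2.96, SE 0.11, adjusted p = 1.4e-17). Microglial genes differed by less. Of 11 tested, 3 were more than 2-fold higher in hypothalamus and 0 in pituitary, with a median of −0.67. The 3 are 27.3% of those tested, against 18.2% of all genes tested. P2ry12, which marks resting microglia, had the largest difference at 2.01 ± 0.287 against 25.5 ± 0.425 CPM (log2 difference −3.65, SE 0.20, adjusted p = 3.21e-14), followed by Cx3cr1 (9.39 against 28.8 CPM) and Csf1r (9.57 against 24.1 CPM), whose call was lost without hypothalamus 4 or pituitary u (−1.24 and −1.22) and with DESeq2 (−1.36).

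Genes of fenestrated and of barrier vessels separated the tissues. Brain capillaries form a tight barrier with specialised transporters, and pituitary capillaries are fenestrated so that hormones can pass. All 4 of 4 genes of fenestrated endothelium were more than 2-fold higher in pituitary (median 4.14), whereas 6 of 9 tested barrier genes were more than 2-fold higher in hypothalamus and 0 in pituitary (median −2.05). Plvap, the protein of the fenestral diaphragm, was at 60.6, 55.3 and 48.9 CPM in pituitary and 3.67, 2.37, 2.80 and 4.03 CPM in hypothalamus (log2 difference 4.07, SE 0.17, adjusted p = 1.38e-16). Igfbp3 was at 119 ± 23.7 against 12.8 ± 2.74 CPM, Aplnr 18.5-fold higher in pituitary and Esm1 at 13.5 ± 2.49 against 0.437 ± 0.569 CPM.

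Barrier transporters showed the reverse order. Slco1c1, which carries thyroxine across the barrier, was at 38.6, 37.3, 34.4 and 35.0 CPM in hypothalamus and had 1, 4 and 2 counts in pituitary (log2 difference −7.15, SE 0.26, adjusted p = 2.08e-17). Slco1a4 was 28.2-fold higher in hypothalamus (2.07 against 59.3 CPM) and the efflux pump Abcb1a 8.59-fold (2.63 against 22.6 CPM). The lipid transporter Mfsd2a (3.02 against 12.6 CPM), the glucose transporter Slc2a1 (29.3 against 72.6 CPM) and Lef1, the mediator of Wnt signals that maintain the barrier (3.32 against 21.0 CPM), were also more than 2-fold higher there. The pump Abcg2 was near equal (28.8 ± 2.33 against 24.2 ± 2.65 CPM, adjusted p = 0.0695). Without pituitary 2 it was 0.31 higher in pituitary on the log2 scale with an adjusted p of 0.0364.

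Genes that all endothelium shares gave the scale for these values. Of 10, 2 were more than 2-fold higher in pituitary and 1 was more than 2-fold higher in hypothalamus, with a median of 0.77 and a summed level of 226.8 to 256.8 against 115.0 to 124.0 CPM. Kdr, the main receptor for vascular endothelial growth factor, was at 61.4 against 16.3 CPM and Emcn at 30.8 against 7.89 CPM. Pecam1 was higher in pituitary by a factor of 1.58 (32.0 against 20.3 CPM). Vwf went the other way (2.33 against 10.5 CPM, log2 difference −2.16, SE 0.25, adjusted p = 3.49e-08). In the supporting tissue, 2 of 8 genes of mural cells and fibroblasts were more than 2-fold higher in pituitary, Col1a2 (445 against 30.9 CPM) and Lum (12.8 against 3.07 CPM), and 1 was more than 2-fold higher in hypothalamus, Acta2 of smooth muscle (0.935 against 6.91 CPM). These counts are 25.0% and 12.5% of the 8.

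**Figure D3:**
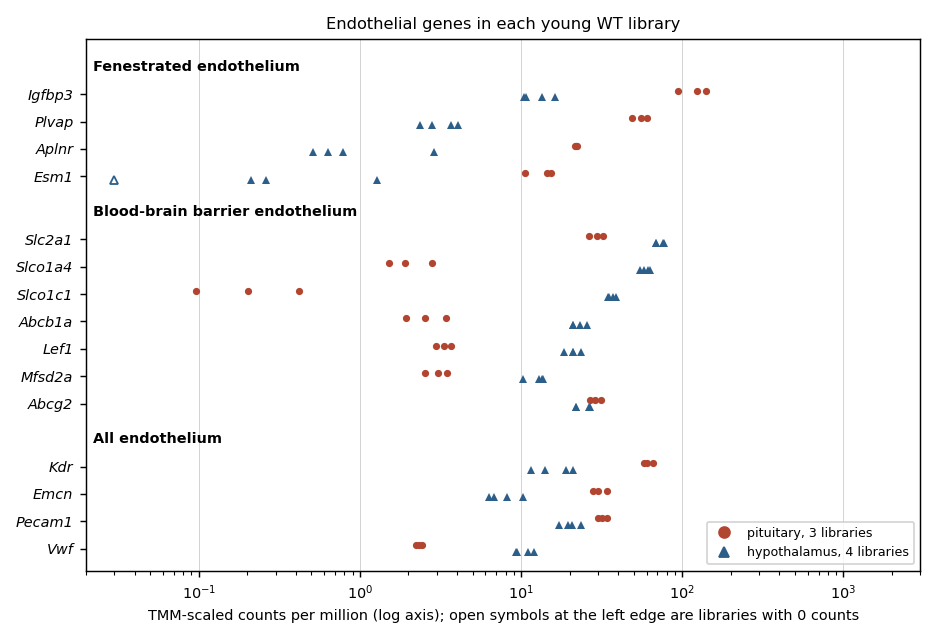
TMM-scaled CPM on a log axis in each pituitary library (circles) and hypothalamus library (triangles) for genes of fenestrated, barrier and all endothelium. Open symbols at the left edge are libraries with 0 counts. The 4 fenestrated genes lie to the right in pituitary and the barrier genes to the right in hypothalamus, apart from Abcg2, whose libraries overlap.

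Epithelial genes were almost all pituitary. These were described together with Zeb1 and miR-200 because the series concerns that circuit. ZEB1 and ZEB2 repress epithelial genes, among them the genes of the miR-200 family, and miR-200 in turn represses Zeb1 and Zeb2. Of 26 epithelial genes, 20 were tested, 19 were more than 2-fold higher in pituitary and 0 in hypothalamus. The median log2 difference was 4.49, or 4.42 with genes at 0 counts set to their bound, and the summed level was 699.1 to 724.8 CPM in pituitary and 46.8 to 60.9 CPM in hypothalamus. Epcam (ENSMUSG00000045394, chr17:87635979-87651129, plus strand), an adhesion molecule of epithelia, was at 170.2, 196 and 156 CPM in pituitary and 0.525, 1.05, 0 and 1.70 CPM in hypothalamus (log2 difference 7.63, SE 0.21, adjusted p = 5.87e-20).

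Regulators and membrane proteins of epithelia followed the same order. Esrp1, an epithelial splicing regulator, was at 77.4, 76.0 and 69.7 CPM in pituitary and had 3 counts in hypothalamus, with a count ratio of 403 (95% exact interval 138 to 1960). Ehf, an ETS factor, was at 17.4, 30.1 and 34.2 CPM and had 2 counts in hypothalamus, a ratio of 220.0 (95% exact interval 60.7 to 1820). St14, the protease matriptase, differed 78.2-fold (20.7 against 0.263 CPM), and Rab25, a GTPase of recycling endosomes, was at 37.7 ± 3.44 against 0.707 ± 0.558 CPM (log2 difference 5.76, SE 0.26, adjusted p = 1.2e-15). Cldn4, a claudin of tight junctions, had 0 counts in hypothalamus and 5.56 ± 2.35 CPM in pituitary, at least 30.5-fold higher.

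The best known epithelial cadherin was the exception. Cdh1 was at 11.8, 12.0 and 14.7 CPM in pituitary and 16.8, 11.3, 10.4 and 11.2 CPM in hypothalamus, with overlap and a log2 difference of 0.05 (SE 0.18, adjusted p = 0.823). The highest of all 7 values was that of hypothalamus 1.

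Zeb1 itself was lower in pituitary. It was at 93.1, 90.0 and 90.3 CPM in pituitary and 220.4, 218, 226 and 221 CPM in hypothalamus, with little spread in either tissue (log2 difference −1.28, SE 0.07, adjusted p = 1.55e-14), and it passed the test against 2-fold. Zeb2 differed more, at 50.9, 47.5 and 42.8 CPM in pituitary and 252, 225, 220.4 and 224 CPM in hypothalamus (log2 difference −2.29, SE 0.08, adjusted p = 8.01e-18). Of 7 tested genes of the Zeb and mesenchymal list, 3 were more than 2-fold higher in hypothalamus, namely Zeb1, Zeb2 and Vim (9.03 against 26.3 CPM), and 1 was more than 2-fold higher in pituitary. The latter was Snai2, a repressor of the same zinc finger class, at 29.4, 27.2 and 40.9 CPM against 4.72, 3.94, 3.31 and 2.76 CPM (log2 difference 3.15, SE 0.20, adjusted p = 1.18e-12). Cdh2, the neural cadherin, was higher in hypothalamus by a factor of 2.06 and not shown to exceed 2-fold.

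The 5 members of the miR-200 family lie in 2 host transcripts. Gm13648 (chr4:156052715-156059802, minus strand) holds miR-200b, miR-200a and miR-429, and Gm15884 (chr6:124715573-124718831, minus strand) holds miR-200c and miR-141. The mature sequences, from RefSeq on GRCm38.p6, are shown with the seed (bases 2 to 8) in capitals because the seed sets which transcripts a miRNA recognises. Of the 5, 2 share the seed AACACUG and 3 share the seed AAUACUG.
mmu-miR-200a-3p: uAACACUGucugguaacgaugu
mmu-miR-141-3p: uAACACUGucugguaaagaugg
mmu-miR-200b-3p: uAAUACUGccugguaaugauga
mmu-miR-200c-3p: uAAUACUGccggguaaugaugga
mmu-miR-429-3p: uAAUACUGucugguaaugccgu

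Mature miRNAs are too short to be counted in these libraries, so only the host transcripts were measured. Gm13648 was at 14.7, 16.6 and 13.8 CPM in pituitary and had 2 counts in hypothalamus, both in library 2, with a count ratio of 122 (95% exact interval 33.5 to 1010). Gm15884 was at 2.22, 2.63 and 1.52 CPM in pituitary and had 1, 0, 0 and 1 counts in hypothalamus, a ratio of 17.2 (95% exact interval 4.58 to 145), and was too low to be tested. Without hypothalamus 1, 2 or 3 it could be tested and was called more than 2-fold higher in pituitary (3.55 to 4.44 on the log2 scale). It entered those fits through its pituitary libraries, where it was high, so these calls add nothing to the ratio of counts. Both host transcripts thus had more counts in pituitary, where Zeb1 and Zeb2 were lower.

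**Figure D4:**
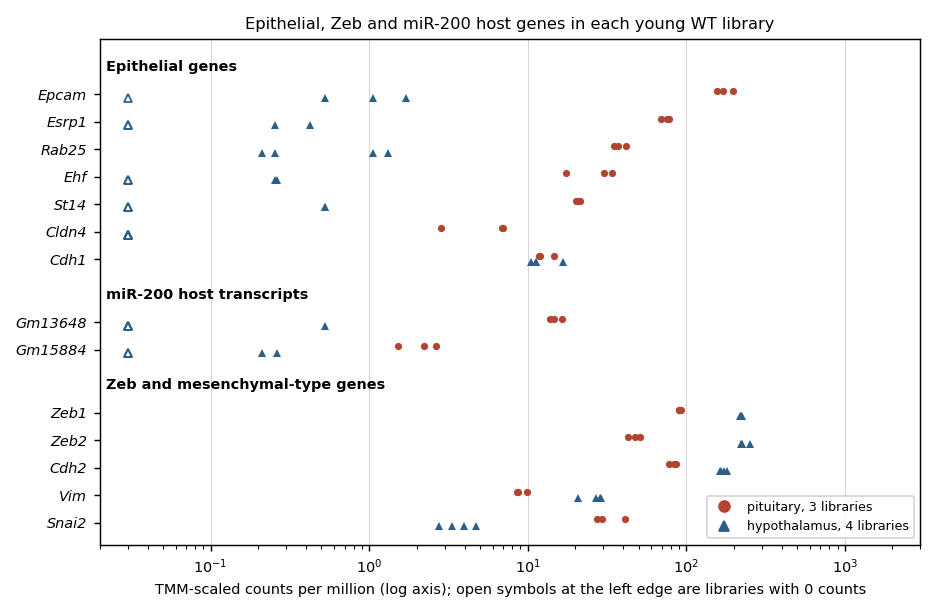
TMM-scaled CPM on a log axis in each pituitary library (circles) and hypothalamus library (triangles) for epithelial genes, the 2 miR-200 host transcripts and Zeb and mesenchymal-type genes. Open symbols at the left edge are libraries with 0 counts. Epcam, Esrp1, Rab25, Ehf, St14 and Cldn4 lie to the right in pituitary, Cdh1 overlaps, and Zeb1, Zeb2, Cdh2 and Vim, but not Snai2, lie to the right in hypothalamus.

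ZEB proteins bind the E-box CACCTG on either strand, which other factors bind as well. It was found in 16 of 22 RefSeq windows of the epithelial genes (72.7%), from 14 of the 17 genes with a window. The share was 28.6% in 14 windows of neuronal genes, 18.5% in windows of all genes tested, 23.2% in those of genes more than 2-fold higher in pituitary, 20.7% in those of genes more than 2-fold higher in hypothalamus and 20.2% in all windows of the genome. These shares are a description, and no test was made. The epithelial list was written with earlier results of these data known, and the study names Epcam and Rab25, which it holds, as ZEB1 targets. Its share is therefore not independent of how the list was chosen. The 250 bases before the start are shown because Epcam, Rab25 and Gm13648 were far higher in pituitary and each holds 2 matches, in capitals. They lie at chr17:87635729-87635978, plus strand, at chr3:88548280-88548529, minus strand, and at chr4:156059803-156060052, minus strand. The matches begin 187 and 19 bases before the start in Epcam, 64 and 53 in Rab25, and 118 and 72 in Gm13648.
Epcam: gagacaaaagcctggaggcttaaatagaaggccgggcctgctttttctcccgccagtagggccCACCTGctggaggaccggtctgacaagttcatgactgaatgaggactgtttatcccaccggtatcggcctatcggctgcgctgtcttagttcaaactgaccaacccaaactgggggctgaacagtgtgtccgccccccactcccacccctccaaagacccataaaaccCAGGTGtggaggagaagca
Rab25: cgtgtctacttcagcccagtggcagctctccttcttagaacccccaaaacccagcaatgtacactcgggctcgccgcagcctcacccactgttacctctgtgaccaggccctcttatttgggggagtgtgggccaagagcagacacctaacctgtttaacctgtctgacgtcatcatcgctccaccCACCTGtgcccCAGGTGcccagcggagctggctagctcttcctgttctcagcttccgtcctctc
Gm13648: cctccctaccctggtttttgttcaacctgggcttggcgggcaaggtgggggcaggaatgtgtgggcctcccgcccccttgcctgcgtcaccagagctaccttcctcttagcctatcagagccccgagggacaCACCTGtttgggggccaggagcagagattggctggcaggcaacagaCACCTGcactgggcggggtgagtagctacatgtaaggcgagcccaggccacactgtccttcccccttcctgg

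Regulators of neuronal splicing went in both directions. Of 16, 9 were more than 2-fold higher in hypothalamus and 1 in pituitary, with a median of −2.48. Celf5 (9.88 against 232 CPM), Rbfox1 (6.84 against 118 CPM) and Rbfox3 (13.6 against 97.7 CPM) were 23.4-fold, 17.2-fold and 7.15-fold higher in hypothalamus. Celf3 was more than 2-fold higher in pituitary (323, 315 and 365 against 149, 138, 162 and 139.6 CPM, log2 difference 1.18, SE 0.07, adjusted p = 2.53e-13), a call that was lost with DESeq2 (1.17) and without pituitary u (1.12), when the count fell from 1 to 0. Srrm4, which drives neuronal microexons, was also higher in pituitary (97.9, 134 and 108 against 74.2, 79.1, 69.5 and 67.7 CPM, log2 difference 0.64, SE 0.10, adjusted p = 2.57e-06), though not by more than 2-fold.

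Receptors for steroid and thyroid hormones were mostly higher in pituitary. Of 9 tested, 4 were more than 2-fold higher in pituitary and 1 was more than 2-fold higher in hypothalamus, with a median of 0.94. Without hypothalamus 1 the latter count was 2. Esr1 (chr10:4611593-5005614, plus strand), oestrogen receptor alpha, was at 377, 421 and 403 CPM in pituitary and 27.0, 28.1, 31.6 and 28.2 CPM in hypothalamus (log2 difference 3.80, SE 0.08, adjusted p = 2.95e-22). Vdr, the vitamin D receptor, was at 7.64 ± 0.927 against 0.735 ± 0.456 CPM (log2 difference 3.34, SE 0.37, adjusted p = 1.92e-08). Pgr, the progesterone receptor, was higher in pituitary by a factor of 1.66 (245, 209.9 and 299 against 150.1, 144, 171 and 140.4 CPM) and not shown to exceed 2-fold.

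The pair of thyroid hormone receptor genes went in opposite directions. Thrb was at 464, 582 and 626 CPM in pituitary and 61.6, 58.1, 73.1 and 78.0 CPM in hypothalamus (log2 difference 3.04, SE 0.10, adjusted p = 1.3e-18). Thra was at 54.1, 44.0 and 48.5 CPM in pituitary and 145, 156, 156 and 183 CPM in hypothalamus (log2 difference −1.71, SE 0.09, adjusted p = 2.87e-14). Per length, the tissues held 172 ± 23.9 TPM of Thrb and 32.2 ± 3.23 TPM of Thra in pituitary, and 28.1 ± 3.52 TPM of Thrb and 142 ± 14.0 TPM of Thra in hypothalamus, so the order of the genes was reversed between tissues.

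Proliferation genes were low in both tissues, and those that could be tested were higher in pituitary. Of 12 cell cycle genes 5 were tested, 4 were more than 2-fold higher in pituitary and the median was 3.57. Mki67 was at 30.6, 25.7 and 34.4 CPM in pituitary and 2.89, 2.10, 3.31 and 1.91 CPM in hypothalamus (log2 difference 3.57, SE 0.20, adjusted p = 1.09e-13). Top2a was at 14.4 ± 3.13 against 0.848 ± 0.390 CPM, Nusap1 at 6.91 ± 1.95 against 0.485 ± 0.269 CPM and Ccnb1 at 2.78 ± 0.437 against 0.261 ± 0.372 CPM. The other 7 genes had too few counts to be tested. Top2a, Nusap1 and Ccnb1 were near the floor in hypothalamus and entered the fit through their pituitary libraries. The count of 4 and the median therefore partly follow from the filter.

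Markers of neighbouring tissues were examined as a check on what the dissections held. Choroid plexus genes split, with 2 of 4 tested more than 2-fold higher in each tissue. Kl (65.8 against 14.2 CPM) and Folr1 (5.56 CPM against 3 counts) were the 2 in pituitary, and Clic6 (2.73 against 18.9 CPM) and Kcnj13 (0.275 against 6.67 CPM) the 2 in hypothalamus. Ttr, the most abundant transcript of choroid plexus, was at 0.901 ± 0.426 CPM in pituitary and 0.494 ± 0.368 CPM in hypothalamus. Of 8 tested genes of cortex, striatum and thalamus, 1 was more than 2-fold higher in pituitary, the Slc17a7 described above, and 2 in hypothalamus. With 1 library left out the first of these counts ran from 0 to 2. The latter, Tbr1 (0.378 against 4.95 CPM) and Drd1 (0.198 against 6.84 CPM), were below 7 CPM on average in hypothalamus. The calls of more than 2-fold are 12.5% and 25.0% of the 8, against 11.8% and 18.2% of all genes tested. By a smaller margin, 4 others were higher in pituitary and 1 in hypothalamus, and the median of the list was 0.55. Its summed level was 364.5 to 427.7 CPM in pituitary and 326.2 to 363.3 CPM in hypothalamus, so the list as a whole does not show what neighbouring brain was held. None of 24 Hox genes, which mark hindbrain and spinal cord, had enough counts to be tested, and their summed level was at most 3.44 CPM in pituitary and 1.78 CPM in hypothalamus. Of genes of muscle, Schwann cells and blood, 3 of 10 were tested and 0 were more than 2-fold apart. With 1 library left out, 0 or 1 were more than 2-fold higher in pituitary.

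Among genes called more than 2-fold apart with a difference of 8-fold or more and no overlap, the 10 with the highest mean CPM in pituitary were Prl, Gh, Reln, 5330417C22Rik, Neurod4, Ccnd2, Cga, Chgb, Tent5a and Pou1f1. Reln, the extracellular glycoprotein reelin, was at 1245, 1184 and 1529 CPM in pituitary and 66.6, 61.5, 63.6 and 62.1 CPM in hypothalamus (log2 difference 4.38, SE 0.08, adjusted p = 4.85e-23). Ccnd2, a D-type cyclin, was at 948, 993 and 976 against 57.5, 57.0, 50.4 and 64.3 CPM (log2 difference 4.08, SE 0.07, adjusted p = 1.66e-23). Tent5a, a poly(A) polymerase, and 5330417C22Rik (also known as Elapor1) were 16.4-fold and 15.6-fold higher, at 769 and 1124 CPM.

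The 10 in hypothalamus included Snhg11, Slc1a2, C230004F18Rik, 9330162G02Rik, Ntrk2, Lsamp, Snhg14 and Gpm6a. Of these, C230004F18Rik, 9330162G02Rik and Snhg14 are annotated without a coding sequence. Snhg14, a long transcript of the imprinted Prader-Willi region on chromosome 7, was at 1210, 1192, 1205 and 1178 CPM in hypothalamus and 29.4, 37.6 and 33.5 CPM in pituitary (log2 difference −5.16, SE 0.08, adjusted p = 2.86e-24), and 9330162G02Rik, a neighbour on the same strand (chr7:59223847-59254788, minus strand), differed 83.1-fold. Ntrk2, the receptor for brain-derived neurotrophic factor, Lsamp, an adhesion molecule of axons, and Gpm6a, a membrane glycoprotein of neurons, were 8.63-fold, 11.8-fold and 9.62-fold higher and kept 181, 108 and 119.7 CPM in pituitary.

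The same tissues were compared in the 8 older WT libraries, which share no library with the young ones. Age, breeding, the poly(A) unstranded chemistry and the counting of those libraries all differ from the young set and cannot be told apart. Of 16125 genes tested in the older set, 37.6% were higher in pituitary and 39.2% in hypothalamus (76.8% in all), and 34.0% differed by more than 2-fold, 14.0% towards pituitary and 19.9% towards hypothalamus. Among 14030 genes tested in both sets, 1440 were more than 2-fold higher in pituitary in both, which is 86.6% of the 1663 so called in the young and 78.4% of the 1837 in the older set. For hypothalamus 2302 were shared, 93.2% of 2469 in the young and 83.7% of 2750 in the older set. In each direction 1 gene was more than 2-fold apart in the opposite sense in the older set, Gm37940 of the young pituitary set and Xkr6 of the young hypothalamic set, both named after their values were seen.

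**Figure D5:**
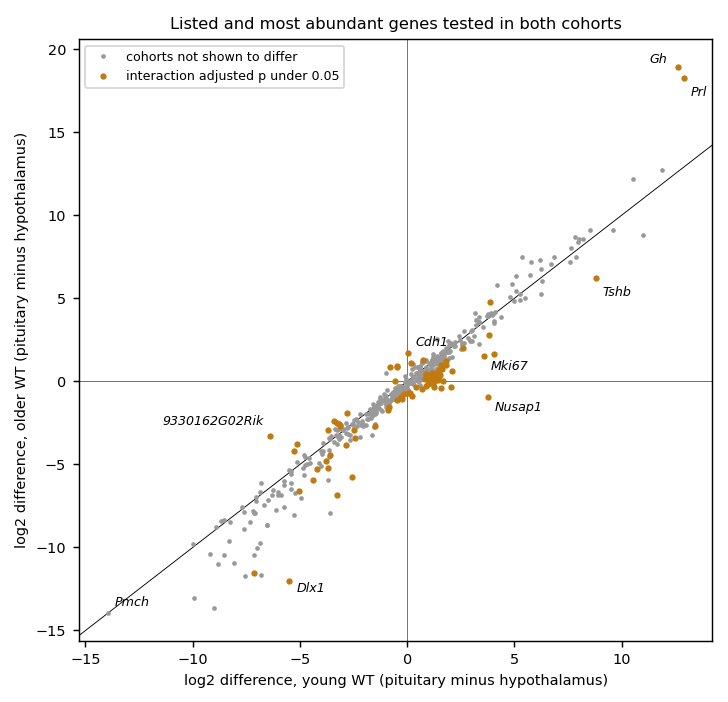
Log2 difference (pituitary minus hypothalamus) in young WT on the x axis and in older WT on the y axis for the 496 listed or abundant genes tested in both sets, with the line of equal values. Orange points are the 84 genes whose tissue difference differed between the sets (interaction, adjusted p under 0.05), and 464 of the 496 points have the same sign on both axes. Fitted values of genes near 0 counts in 1 tissue depend on the prior count.

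Whether the tissue difference itself differed between the sets was tested as an interaction over all 15 libraries, and 1282 of 19350 genes (6.63%) passed. Hormones were more than 2-fold higher in pituitary in 7 of 7 cases in the older set too (median 8.60), epithelial genes in 24 of 25 (median 4.06), fenestrated genes in 4 of 4 (4.66), and barrier genes were more than 2-fold higher in hypothalamus in 8 of 11 (−2.68). Zeb1 was at 58.9 ± 2.77 CPM in older pituitary and 125 ± 8.97 CPM in older hypothalamus (log2 difference −1.09, adjusted p = 2.06e-08). That difference did not pass the test against 2-fold, and it did not differ detectably from that of the young (interaction adjusted p = 0.13).

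Some named genes did differ between the sets. Cdh1, not shown to differ between the young tissues, was higher in older pituitary (13.1 ± 1.40 against 3.95 ± 2.89 CPM, log2 difference 1.72), and the interaction passed (−1.77, adjusted p = 0.0153). Among cell cycle genes, 2 of 7 tested were more than 2-fold higher in pituitary in the older set, against 4 of 5 in the young. The share over all genes was 14.0% in the older set and 11.8% in the young. The tested members were not the same in the 2 sets, so neither these counts nor the list medians compare the same genes. Mki67 was at 2.44 ± 0.660 CPM in older pituitary (log2 difference 1.54, interaction 1.94, adjusted p = 0.00247), and the median of the list was −0.73 in the older set. Esr1 differed less in the older set (2.79, interaction adjusted p = 0.00025).

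Some short transcripts stood at other levels in the older libraries, and levels cannot be compared across the chemistries. Pomc was at 9855 ± 1469 CPM in older pituitary and 54.5 ± 15.6 CPM in older hypothalamus, against 717 and 6.40 CPM in the young, and its tissue difference was not shown to differ (7.50 against 6.83, interaction adjusted p = 0.128). Crh, too low to test in the young, was at 5.34 ± 1.85 CPM in older hypothalamus against 0 counts in pituitary, at least 57.3-fold higher. Gnrh1 was at 0.390 ± 0.327 CPM in older pituitary and 2.77 ± 0.548 CPM in older hypothalamus (log2 difference −2.58, interaction adjusted p = 0.0256). Ribosomal protein genes were more than 2-fold higher in pituitary in 19 of 81 cases in the older set (median 0.67) against 54 of 81 in the young.

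For Prl and Gh the older difference was larger by the interaction (−5.47 and −6.37, adjusted p = 3.59e-07 and 7.03e-09). The hypothalamic levels behind these values were traces, and Prl had 31 counts over 4 older hypothalamus libraries and 290 over 4 young ones, and Gh had 10 and 67. In pituitary, Prl took 15.8 to 19.5% of counts in the older and 12.5 to 14.5% in the young libraries, and Gh 9.03 to 10.3% and 2.43 to 3.02%.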

How the data were processed

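RNA was measured in whole pituitary and hypothalamus of young and older wild-type females. For the young libraries the authors depleted ribosomal RNA, made stranded paired-end libraries, aligned reads with STAR 2.7.1a to mm10 and counted them on the reverse strand with featureCounts over GENCODE genes. For the older libraries they selected poly(A) RNA, sequenced unstranded single ends and counted with HTSeq 0.9.1 over Ensembl genes of GRCm38. The deposited values used here are raw counts per gene. The deposited tables also hold the authors' fold changes and p-values, which were not used. In another table of the young pituitary 1 WT column name occurs more than once, and its 3 columns of per-sample values were not used. Identifiers were paired with symbols from a GENCODE annotation (99.07% of 55964), which also gave gene positions and exon lengths for TPM.

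Counts were scaled by TMM, filtered with filterByExpr and tested with edgeR 4.0.16 (R 4.3.3), by the quasi-likelihood F test and, for differences of more than 2-fold, by glmTreat (log2 difference of 1). The fit held the 7 young WT libraries and tissue alone, p-values were adjusted by Benjamini-Hochberg over all genes tested, and calls were made at 0.05. The older set was fitted in the same way. The interaction of tissue and set was fitted over 15 libraries and the genes with an identifier in both annotations. Log2 differences are pituitary minus hypothalamus. Where a tissue had 0 counts, 3 counts over the group gave the bound, and for 1 to 3 counts the ratio of scaled counts is given with a 95% exact interval, which like every such interval covers counting error only. The scripts were tested on simulated counts.

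Members and the 35 gene lists were chosen with earlier results of these data known, so a list is described by counts and its median and was not tested. Named genes were the members of lists of up to 12 genes, from longer lists the up to 5 members with the largest difference among those called in each direction and the members not called, and in each direction the 10 genes with the highest mean CPM among those called with a difference of 8-fold or more and no overlap of libraries. Of the permitted genes, those needed for a list's description were given, and some genes of the lists are not reported here. By the study's methods, replicates of a tissue came from separate mice. Same-numbered libraries of the tissues did not deviate together (correlations of deviations from the group means 0.0177 and 0.0427 in the young), so the numbers were not used as pairs. Alternatives were other scalings, other low-count filters, DESeq2 1.42.0, protein-coding genes alone, leaving out each library and the replicate block.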

Additional observations from a re-analysis of the deposited data

Results flagged for a closer look

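Among 178 genes with 4 hypothalamus libraries each, 1 library stood apart from the other 3 in 17 genes by the Dixon ratio at its 95% critical value, and chance alone gives about 1 in 20. The 3 pituitary libraries were too few for this. At the level of 1 to 3 counts, the libraries with any count stood apart where the others had 0. These were Pou1f1 at 0.636 CPM in hypothalamus 4, Lhx3 at 0.509 CPM in hypothalamus 3, and Ghrhr at 0.262 CPM in hypothalamus 1. Gnrhr at 0.263 CPM and Gm13648 at 0.525 CPM stood apart in hypothalamus 2.

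Hypothalamus 1 was low for Sst (36.7 CPM, others 45.5 to 46.9) and Tbr1 (2.89 CPM, others 5.51 to 5.78). It was high for Aplnr (2.89 CPM, others 0.509 to 0.788), Cdh1 (16.8 CPM, others 10.4 to 11.3) and Zeb2 (251.6 CPM, others 220.4 to 225.2). Hypothalamus 2 was high for Otp (92.2 CPM, others 77.4 to 79.9) and Sdf2l1 (2.89 CPM, others 1.05 to 1.27). It was low for Vamp1 (157.4 CPM, others 172.2 to 173.4) and Top2a (0.263 CPM, others 1.02 to 1.06). Hypothalamus 3 was low for Cx3cr1 (20.6 CPM, others 30.7 to 32.8) and high for Lsamp (1370.0 CPM, others 1248 to 1254). Hypothalamus 4 was high for Cplx1 (106.0 CPM, others 80.4 to 82.5).

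The tissue difference differed between young and older sets for 24 of the 178 genes by the interaction (edgeR, young minus older, log2 scale), against 6.63% of all genes tested. Among hormones the values were −5.47 for Prl (adjusted p = 3.59e-07), −6.37 for Gh (7.03e-09), 2.52 for Tshb (0.0255), 2.28 for Gnrh1 (0.0256) and 1.45 for Oxt (0.0461). Among neuronal and release genes they were −1.19 for Snhg11 (3.24e-05), 0.64 for Meg3 (0.00957), 0.89 for Sv2c (0.0107), −0.74 for Vamp1 (0.00167), 0.48 for Cplx2 (0.0459), −1.06 for Pcsk1 (1.46e-05) and 0.89 for Rbfox3 (0.0255). Dlx1 (6.21, 0.001) and Slco1c1 (4.05, 0.0465) had 0 counts in older pituitary, so these 2 values depend on the prior count.

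Among nuclear receptors the interaction passed for Esr1 (0.91, 0.00025). Cell cycle genes were Mki67 (1.94, 0.00247), Top2a (2.32, 0.00901) and Nusap1 (4.62, 7.31e-06), each with the higher pituitary value relative to hypothalamus in the young. Col1a2 (−1.05, 0.0204) and Cdh1 (−1.77, 0.0153) went the other way. Of the abundant hypothalamic transcripts, C230004F18Rik (−1.08, 0.00463), 9330162G02Rik (−3.18, 4.9e-08), Ntrk2 (−0.50, 0.0135) and Snhg14 (−1.47, 2.7e-06) differed more between the young than between the older tissues. The age, the breeding, the chemistry and the counting of the sets cannot be told apart.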

How the results depend on the processing

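Of 2729 values of the named genes under other settings, 2719 kept their direction and their side of the threshold, 5 no longer passed, 5 newly passed and 0 changed direction. That threshold is an adjusted p under 0.05 for any difference, and calls of more than 2-fold changed more often. Slc17a7 under the replicate block was 1.14 (adjusted p = 0.0565). Cplx2 no longer passed without the low-count filter (−0.10, adjusted p = 0.284) and with upper-quartile factors (−0.02, adjusted p = 0.759). Pcsk1 newly passed under the same 2 settings (0.22 and 0.29), as did Abcg2 with upper-quartile factors (0.38). The cause was not tested. Keeping the genes whose counts averaged 50 or more left 1244 calls of more than 2-fold for pituitary and 1911 for hypothalamus, against 1941 and 2996, since fewer genes were tested.

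Leaving out 1 library gave 1856 to 2027 genes more than 2-fold higher in pituitary and 2984 to 3072 in hypothalamus, and 5772 to 6040 and 5694 to 5911 at an adjusted p under 0.05. In the older set it gave 5479 to 5621 genes more than 2-fold different, and for the interaction 876 to 1353. DESeq2 called 1411 and 2630 genes more than 2-fold higher in pituitary and in hypothalamus. The replicate block over the libraries numbered 1 and 2 gave 1809 and 2864 such genes (5490 in both directions in the older set), and the numbers do not show a pairing. Upper-quartile factors moved the median of all genes by 0.13 on the log2 scale and called 2256 and 2759 genes more than 2-fold apart. Of 770 counts of list members under other scalings or with 1 library left out, 28 moved by over 1.5 times. Upper-quartile factors account for 4 of these, among them the mural and fibroblast genes more than 2-fold higher in pituitary (2 to 4). The 2-fold calls of Meg3 (1.14) and Derl3 (3.08) were lost with DESeq2 alone. Under the replicate block those of Gal (0.8) and Chga (1.24) were lost. With upper-quartile factors those of Isl1 (−1.17) and Csf1r (−1.21) were lost and that of Six3 (1.25) was gained, and further such calls changed.

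With 3 and 4 libraries a tissue, genes of few counts in hypothalamus limit what can be seen, since 1 count there is worth more than 0.2 CPM. Depth, mitochondrial share and tissue go together. Dissection borders, lobes and the pairing of tissues within a mouse are not given.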
